A study of Mus musculus with 9 samples.

Results

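The genes described here encode 8 enzymes that build triglyceride from glycerol phosphate or monoacylglycerol and fatty acyl-CoA: Gpam, Agpat2, Agpat3, Lpin1, Lpin2, Mogat2, Dgat1 and Dgat2. They were taken by symbol as enzymes of the pathway and make up 8 of the 21959 genes listed. All 8 were matched to a gene identifier, had counts in all 9 libraries and passed the filter on low counts. RNA was sequenced from AML12 cells, a mouse hepatocyte line derived from mice carrying a transforming growth factor alpha transgene, and all cells were loaded with free fatty acids (FFA). Of 3 groups with 3 libraries each, OCY-EV+ANTA received aged osteocyte vesicles (extracellular vesicles, EV) after their incubation with antagomir-483-5p, an oligonucleotide against the microRNA miR-483-5p. OCY-EV+ANTA-NC received such vesicles incubated with antagomir-NC, a control oligonucleotide, and Veh received phosphate-buffered saline. Vesicles were applied at 2 µg/ml after 30 min of incubation with the antagomir. For the handling that followed, the labels give ultracentrifugation and, elsewhere, ultrafiltration.

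The design asked what the vesicles did to lipid-loaded hepatocytes and what the antagomir against miR-483-5p did to that. Vesicles alone and antagomir alone were not among the groups, so OCY-EV+ANTA-NC against Veh joins the effects of vesicles and control antagomir. All libraries are from 1 cell line, and the labels leave unsaid whether replicate libraries stem from separate cultures. The p-values therefore reflect the spread between libraries alone, and that spread may be technical. In RNA of whole cultures, fewer cells expressing a gene and less RNA per cell cannot be told apart.

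Triglyceride is assembled on a glycerol backbone. Glycerol phosphate acyltransferases such as Gpam attach the first acyl chain, lysophosphatidate acyltransferases (Agpat2, Agpat3) add the next to give phosphatidic acid, and the lipins (Lpin1, Lpin2) remove the phosphate to leave diacylglycerol. Diacylglycerol is also made by monoacylglycerol acyltransferases such as Mogat2, a route best known from absorptive cells of the intestine, and Dgat1 or Dgat2 add the last acyl chain. In hepatocytes the product is stored in lipid droplets or secreted in lipoproteins, while phosphatidic acid and diacylglycerol also feed phospholipid synthesis.

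The antagomir is directed at miR-483-5p, so its sequence and its matches in the genes of the pathway are shown. The mature strand (RefSeq, GRCm38.p6, chr7:142654968-142654989, minus strand) is given 5′ to 3′ with its seed, bases 2 to 8, in capitals.
miR-483-5p: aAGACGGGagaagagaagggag
The 3′ untranslated regions of GENCODE M21 transcripts (GRCm38) were searched on the sense strand for the reverse complement of the seed, CCCGTCT, and of its first 6 bases, CCGTCT, a motif contained in the longer one. Capitals mark the bases that pair with the seed.
Lpin1, site of 7 bases, chr12:16538143-16538149: ccctccagtCCCGTCTgctccagcaa
Lpin1, site of 6 bases, chr12:16536689-16536694: aggttcacggCCGTCTccctcatgcc
Agpat3, site of 6 bases, chr10:78271940-78271945: tccccacacaCCGTCTcctcacaaat
Dgat2, site of 6 bases, chr7:99153990-99153995: cccacaggtgCCGTCTtgggttatct
All these sites lie on the minus strand. The 7-base site of Lpin1 was in 4 of its 5 annotated transcripts with a 3′ untranslated region and the 6-base site in 2 of 5. The Agpat3 site was in 5 of 7 transcripts and the Dgat2 site in 1 of 3. The motif CCCGTCT occurred in 1 of the 8 genes, against 4.37% of the 11465 tested genes with a 3′ untranslated region, and CCGTCT in 3 of 8, against 15.1%. Gpam, Agpat2, Lpin2, Mogat2 and Dgat1 held neither motif in these regions. A match is a description of the sequence, and microRNA binding was not measured here.

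All 9 libraries were of similar depth, with 17298814 to 21737643 counted reads, and 11562 genes were tested. Of the hepatocyte markers, Hnf4a had 49.0 to 66.1 CPM (counts scaled to a common library total) and Apob 91.9 to 131 CPM, whereas Alb reached 7.21 CPM at most, Cyp2e1 had at most 1 count and Serpina1a had 0. The bile duct keratin Krt19 lay at 2324 to 2866 CPM. The defining osteocyte genes Sost and Dmp1 had 0 counts in all libraries, while Phex had at most 9 and Mepe and Fgf23 at most 1. Of the macrophage markers Ptprc had at most 5 counts whereas Cd68, a lysosomal protein, had 130 to 251 (7.05 to 14.7 CPM).

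Gpam had the highest deposited FPKM of the 8 genes and Agpat3 the lowest. The scale for comparing genes is FPKM (fragments scaled by gene length and library total), averaged over all 9 libraries. The gene length behind it was 6664 bases for Gpam, 2130 for Agpat2 and 12233 for Lpin2. Their longest annotated transcripts have 6172, 1489 and 5640 bases, so the order of the genes depends on the length used. Gpam averaged 28.4 FPKM (range 24.6 to 31.5), Agpat2 21.9 (20.9 to 23.0), Dgat2 17.1 (15.2 to 18.7) and Lpin2 11.3 (10.9 to 11.7). Mogat2 averaged 9.23 FPKM (7.79 to 10.5), Lpin1 9.2 (8.06 to 11.0), Dgat1 8.78 (8.05 to 10.1) and Agpat3 5.79 (5.38 to 6.31). The ranges of neighbours in this order overlapped for Mogat2 with Lpin1 and for Lpin1 with Dgat1, and were separate for the other neighbouring pairs. Lpin2 varied least over the libraries, with a coefficient of variation of 1.87% of its mean FPKM, and Lpin1 and Mogat2 varied most, at 11.5% each. Mogat2 also rested on the fewest reads, 265 to 348 counts per library, and Gpam on the most, 2835 to 4345.

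Each step had isoenzymes outside these 8 genes, and their level per length differed by step. Gpam supplied 37.8% of the mean FPKM summed over 4 glycerol phosphate acyltransferase genes, and Gpat4, an acyltransferase of the endoplasmic reticulum, 59.0% at 44.3 FPKM. Agpat2 supplied 41.0% of the lysophosphatidate acyltransferase sum, Agpat1 35.0%, Agpat5 13.0% and Agpat3 10.8%. Lpin2 held 55.1% and Lpin1 44.8% of the lipin sum, since Lpin3 had at most 5 counts in a library. Mogat1, the isoenzyme known from fatty mouse liver, had at most 1 count, so Mogat2 supplied 99.8% of the monoacylglycerol acyltransferase sum. Dgat2 supplied 55.9% and Dgat1 28.8% of the sum with Tmem68, an enzyme that makes triglyceride by another route, which had the remaining 15.3%. These shares describe transcripts per length and not enzyme activity, and they too depend on the gene length used.

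**Figure D1:**
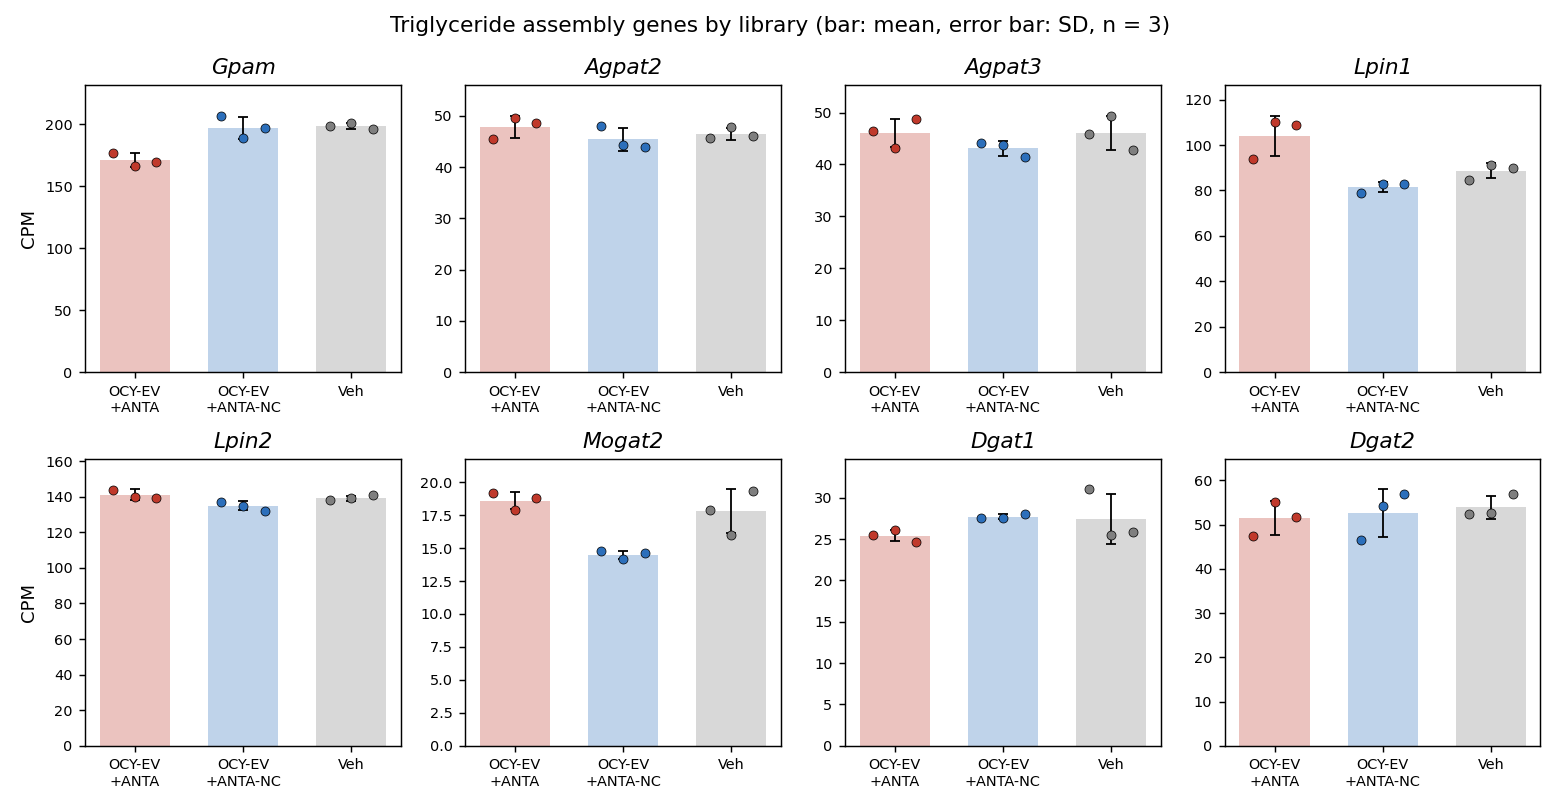
Expression of the 8 triglyceride assembly genes in CPM (y axis, starting at 0, a separate scale per gene) in OCY-EV+ANTA, OCY-EV+ANTA-NC and Veh (x axis). Points are libraries 1 to 3 of a group, bars the mean and error bars the SD. Gpam is lower in all OCY-EV+ANTA libraries than in all others, Lpin1 is higher in them, and Mogat2 is lowest in the OCY-EV+ANTA-NC libraries.

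With antagomir-483-5p on the vesicles, the transcript of Gpam, a glycerol phosphate acyltransferase, was lower than with the control antagomir. Those of a lipin and of the monoacylglycerol acyltransferase Mogat2 were higher. Of the 8 genes, 2 rose (Lpin1 and Mogat2), 1 fell (Gpam) and 5 did not pass the test, edgeR's quasi-likelihood test with Benjamini-Hochberg adjustment over all 11562 genes at 0.05. Over all genes tested 14.7% were called, 7.59% higher and 7.09% lower, so calls were common in this comparison. The groups did not overlap for 5 of the 8 genes (Gpam, Lpin1, Lpin2, Mogat2 and Dgat1), against 29.9% of all genes tested, and Lpin2 overlapped on the FPKM scale. The median log2 fold change of the 8 genes was 0.07, against -0.002 for all genes tested. The median size of the called changes was 0.21, so Lpin1 and Mogat2 at 0.36 lay above the median call and Gpam at it. Over all genes the split of calls followed the scaling, with 878 higher and 820 lower by TMM (trimmed mean of M values), 530 and 1155 with library size alone, and 1139 and 612 once a GC content and length trend was removed. The 3 calls of the pathway kept their direction and their side of the threshold under each of these.

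Gpam encodes the mitochondrial glycerol phosphate acyltransferase, which commits acyl-CoA to glycerolipids, and lies at chr19:55067268-55127238 on the minus strand (GRCm38, ENSMUSG00000024978). It had 177, 166 and 170 CPM in OCY-EV+ANTA libraries 1 to 3, 207, 189 and 197 CPM in OCY-EV+ANTA-NC and 199, 201 and 196 CPM in Veh. All OCY-EV+ANTA libraries lay below all 6 others, and the OCY-EV+ANTA-NC and Veh libraries overlapped. Gpam fell by 13.3% in OCY-EV+ANTA relative to OCY-EV+ANTA-NC, a log2 fold change of -0.21 (SE 0.04, edgeR adjusted p = 0.00158). Against Veh it was -0.22 (SE 0.04, edgeR adjusted p = 0.0023). OCY-EV+ANTA-NC against Veh gave -0.01, with an interval of 2 SE on either side from -0.09 to 0.07 and edgeR adjusted p = 0.949. The sign of this last value turned with library size alone, at 0.01. Gpat4, which held more of the step per length, averaged 301 ± 12.1 CPM in OCY-EV+ANTA, 286 ± 4.56 CPM in OCY-EV+ANTA-NC and 302 ± 5.07 CPM in Veh (SD, n = 3), and was called in no comparison.

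Agpat2 and Agpat3 did not pass the test in any comparison. Agpat2 makes phosphatidic acid in the endoplasmic reticulum and is the gene mutated in a human congenital lipodystrophy. It lies at chr2:26593057-26604417, minus strand (ENSMUSG00000026922), and 3.0% of its exon bases overlap Egfl7 on the opposite strand, whose reads cannot be told apart without a stated strand setting. It averaged 47.9 ± 2.13 CPM in OCY-EV+ANTA, 45.4 ± 2.22 CPM in OCY-EV+ANTA-NC and 46.5 ± 1.2 CPM in Veh (SD, n = 3). The groups overlapped in every pair. The log2 difference between OCY-EV+ANTA and OCY-EV+ANTA-NC was 0.08, with an interval of -0.03 to 0.18.

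Agpat3 encodes an acyltransferase of the endoplasmic reticulum and Golgi that also acts in phospholipid synthesis, and lies at chr10:78269178-78352489, minus strand (ENSMUSG00000001211). It averaged 46.1 ± 2.74 CPM in OCY-EV+ANTA, 43.1 ± 1.47 CPM in OCY-EV+ANTA-NC and 46.0 ± 3.28 CPM in Veh (SD, n = 3), and its groups overlapped in every pair as well. Its log2 difference between OCY-EV+ANTA and OCY-EV+ANTA-NC was 0.1 (interval -0.02 to 0.22). This gene holds the 6-base seed match shown above.

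The lipins differed from each other. Lpin1 encodes a phosphatidate phosphatase that also acts in the nucleus as a coactivator of fatty acid oxidation genes, and its loss in the mouse causes fatty liver dystrophy. It lies at chr12:16535669-16610966, minus strand (ENSMUSG00000020593), and holds the 7-base seed match. It had 94.0, 110 and 109 CPM in OCY-EV+ANTA libraries 1 to 3, 78.9, 82.7 and 82.7 CPM in OCY-EV+ANTA-NC and 84.8, 91.2 and 90.0 CPM in Veh. All OCY-EV+ANTA libraries were above all others, with library 1 nearest to them, and all OCY-EV+ANTA-NC libraries were below those of Veh. Lpin1 was 28.1% higher in OCY-EV+ANTA than in OCY-EV+ANTA-NC, a log2 fold change of 0.36 (SE 0.05, edgeR adjusted p = 0.000146). Leaving out each library in turn kept this value between 0.32 and 0.42 with adjusted p of 0.0024 at most. Against Veh, Lpin1 rose in OCY-EV+ANTA by 0.23 (SE 0.05, edgeR adjusted p = 0.0107). That call ended without Veh 1 (adjusted p = 0.0508), OCY-EV+ANTA 2 (0.0705) or OCY-EV+ANTA 3 (0.0682), and with limma on log2(FPKM + 1) (0.0761) or log2(FPKM + 0.1) (0.0738).

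Lpin2, a phosphatidate phosphatase prominent in liver, lies at chr17:71182560-71249817, plus strand (ENSMUSG00000024052). It had 144, 140 and 139 CPM in OCY-EV+ANTA, 137, 135 and 132 CPM in OCY-EV+ANTA-NC and 138, 139 and 141 CPM in Veh. The OCY-EV+ANTA-NC libraries were the lowest of the 9 by a small margin with TMM scaling, but not on the FPKM scale, where OCY-EV+ANTA 2 and 3 had 11.3 FPKM, OCY-EV+ANTA-NC 1 had 11.4 and Veh 1 and 2 had 11.3. Its log2 difference between OCY-EV+ANTA and OCY-EV+ANTA-NC was 0.06 (SE 0.04, edgeR adjusted p = 0.286), with an interval of -0.01 to 0.14. Summed over both lipins, the level was 21.8 ± 0.653 FPKM in OCY-EV+ANTA, 19.4 ± 0.075 FPKM in OCY-EV+ANTA-NC and 20.3 ± 0.386 FPKM in Veh (SD, n = 3). The ranges of these sums did not overlap between any pair of groups, at 21.1 to 22.2, 19.4 to 19.5 and 19.8 to 20.5 FPKM.

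Mogat2 makes diacylglycerol from monoacylglycerol and lies at chr7:99219084-99238619, minus strand (ENSMUSG00000052396). Of its exon bases, 3.0% overlap the predicted gene Gm45012 on the opposite strand. It had 19.2, 17.9 and 18.8 CPM in OCY-EV+ANTA libraries 1 to 3, 14.8, 14.2 and 14.6 CPM in OCY-EV+ANTA-NC and 17.9, 16.0 and 19.3 CPM in Veh. The 3 OCY-EV+ANTA-NC libraries were the lowest of the 9, and those of OCY-EV+ANTA and Veh overlapped. Mogat2 was 28.2% higher in OCY-EV+ANTA than in OCY-EV+ANTA-NC, a log2 fold change of 0.36 (SE 0.08, edgeR adjusted p = 0.00631). The difference between OCY-EV+ANTA and Veh was 0.07, with an interval of -0.09 to 0.24 (edgeR adjusted p = 0.663).

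Mogat2 and Dgat2 belong to the same enzyme family and are neighbours on chromosome 7, 36364 bases apart on the same strand with no protein-coding gene between them. Dgat2 (chr7:99153658-99182719, minus strand, ENSMUSG00000030747) esterifies mainly newly made fatty acids. It had 47.4, 55.1 and 51.7 CPM in OCY-EV+ANTA, 46.4, 54.2 and 56.8 CPM in OCY-EV+ANTA-NC and 52.3, 52.6 and 56.8 CPM in Veh. The groups overlapped in every pair, unlike those of its neighbour between OCY-EV+ANTA and OCY-EV+ANTA-NC. The log2 difference of Dgat2 between OCY-EV+ANTA and OCY-EV+ANTA-NC was -0.03, with an interval of -0.17 to 0.1 (edgeR adjusted p = 0.815). Its sign turned when single libraries were left out, over a range of -0.11 to 0.03.

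Dgat1 (chr15:76502015-76511953, minus strand, ENSMUSG00000022555) esterifies mainly fatty acids from outside the cell and from recycling, and belongs to another protein family. It had 25.5, 26.1 and 24.7 CPM in OCY-EV+ANTA, 27.5, 27.6 and 28.0 CPM in OCY-EV+ANTA-NC and 31.0, 25.5 and 25.8 CPM in Veh. All OCY-EV+ANTA libraries were below those of OCY-EV+ANTA-NC, and Veh 1 stood above the other 8 libraries. The log2 difference between OCY-EV+ANTA and OCY-EV+ANTA-NC was -0.12 (SE 0.07, edgeR adjusted p = 0.273), with an interval of -0.27 to 0.02. Over both enzymes of the last step the summed level was 24.8 ± 1.29 FPKM in OCY-EV+ANTA, 26.4 ± 1.82 FPKM in OCY-EV+ANTA-NC and 26.4 ± 0.927 FPKM in Veh (SD, n = 3), with overlapping groups.

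**Figure D2:**
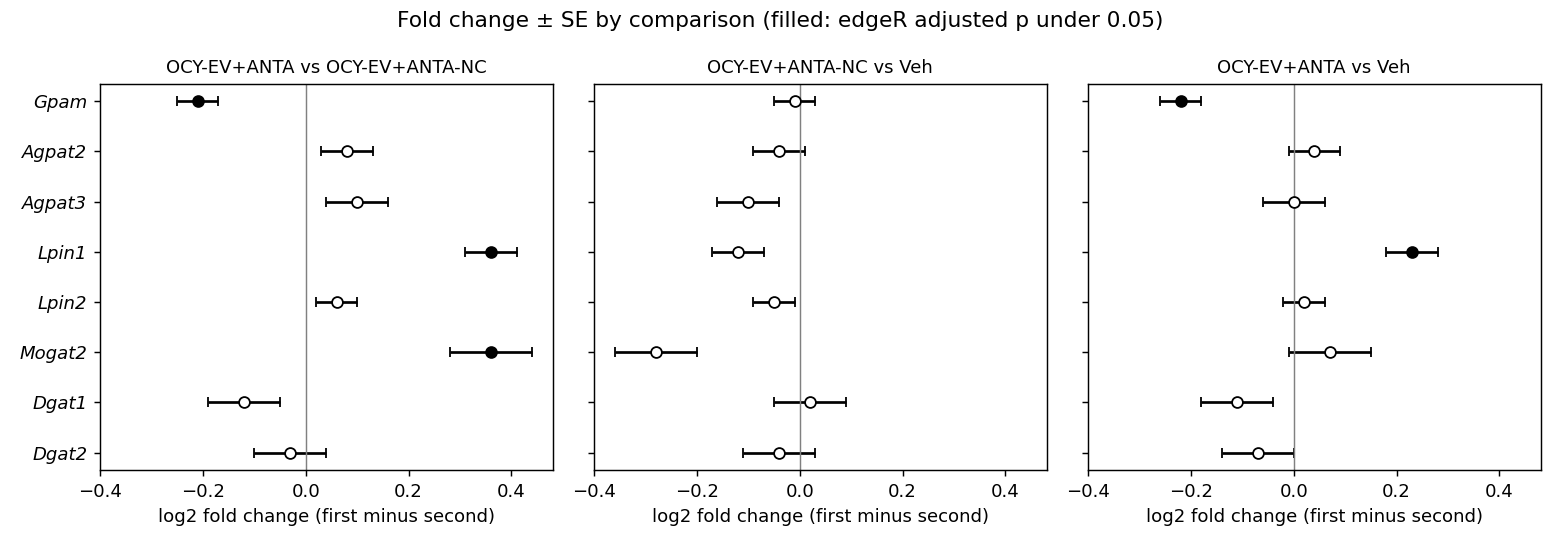
Log2 fold changes of the 8 genes (x axis, first group minus second) with their SE as error bars, in OCY-EV+ANTA against OCY-EV+ANTA-NC, OCY-EV+ANTA-NC against Veh and OCY-EV+ANTA against Veh. Filled points passed edgeR's test at an adjusted p under 0.05: Gpam, Lpin1 and Mogat2 in the first panel, none in the second, Gpam and Lpin1 in the third.

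None of the 8 genes passed the test between cells given vesicles with the control antagomir and cells given vehicle. By edgeR 0 of 8 were called, against 1.02% of all genes tested, and 2 of 8 (Mogat2 and Lpin1) had an unadjusted p under 0.05. By p these 2 ranked 281 and 1203 among the 11562 genes tested, so such values were common. DESeq2 and limma on log2(FPKM + 1) called 0 of 8 as well. The log2 difference was negative for 7 of the 8 genes, Dgat1 at 0.02 being the exception, and with library size alone or on the FPKM scale Gpam turned positive too. The median of the 8 was -0.04, against -0.005 for all genes tested. For Lpin1, Lpin2 and Mogat2 the OCY-EV+ANTA-NC libraries lay below those of Veh without overlap, 3 of 8 against 19.3% of all genes (8.99% higher and 10.3% lower), and Lpin2 overlapped here too on the FPKM scale.

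Mogat2 had the largest difference of the 8 between OCY-EV+ANTA-NC and Veh, -0.28 on the log2 scale (SE 0.08, edgeR adjusted p = 0.114), with an interval of -0.45 to -0.12. Lpin1 gave -0.12 (SE 0.05, edgeR adjusted p = 0.312). The intervals of the other 6 genes lay between -0.22 and 0.15. Over all genes the calls split into 94 higher and 24 lower, 157 and 6 with library size alone, and 39 and 22 with the GC content and length trend removed.

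Against vehicle, Gpam was lower and Lpin1 higher with antagomir-483-5p on the vesicles, and the other 6 genes did not pass the test. The 2 calls compare with 6.52% of all genes tested (3.06% higher and 3.46% lower), and Gpam and Lpin1 were also the only 2 of 8 whose groups did not overlap, against 25.0% of all genes. The median of the 8 log2 fold changes was 0.01. The remaining values ran from -0.11 for Dgat1 to 0.07 for Mogat2, with intervals that all held 0. This comparison and OCY-EV+ANTA against OCY-EV+ANTA-NC share the OCY-EV+ANTA libraries, and each vehicle comparison shares the Veh libraries, so the values for a gene are not independent of each other.

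**Figure D3:**
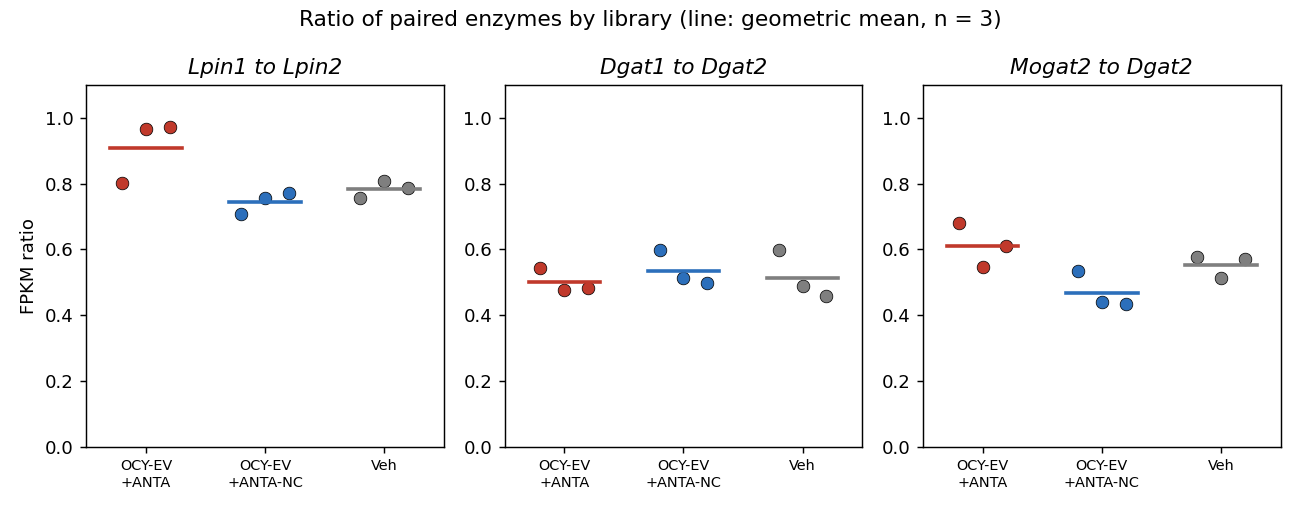
FPKM ratios (y axis, linear from 0) of Lpin1 to Lpin2, Dgat1 to Dgat2 and Mogat2 to Dgat2 in each library (points) of OCY-EV+ANTA, OCY-EV+ANTA-NC and Veh (x axis), with the geometric mean of 3 libraries as a line. The Lpin1 to Lpin2 and Mogat2 to Dgat2 ratios of the OCY-EV+ANTA libraries lie above all those of OCY-EV+ANTA-NC, and the Dgat1 to Dgat2 ratios overlap.

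Ratios were compared because they do not depend on how libraries are scaled, with Lpin1 to Lpin2 and Dgat1 to Dgat2 within a step and Mogat2 to Dgat2 between neighbouring steps. The Lpin1 to Lpin2 ratio of FPKM was 0.802, 0.966 and 0.972 in OCY-EV+ANTA, 0.707, 0.757 and 0.771 in OCY-EV+ANTA-NC and 0.756, 0.807 and 0.787 in Veh. OCY-EV+ANTA did not overlap OCY-EV+ANTA-NC and overlapped Veh through its library 1. The log2 difference was 0.29 for OCY-EV+ANTA against OCY-EV+ANTA-NC, with p = 0.1 in a two-sided exact permutation test, the smallest p that 3 against 3 libraries allow, so no ratio could pass 0.05. The Dgat1 to Dgat2 ratio had geometric means of 0.5 in OCY-EV+ANTA, 0.534 in OCY-EV+ANTA-NC and 0.512 in Veh, with overlap in every pair (exact permutation p = 0.5 to 0.8). The Mogat2 to Dgat2 ratio was 0.679, 0.546 and 0.611 in OCY-EV+ANTA, 0.534, 0.439 and 0.433 in OCY-EV+ANTA-NC and 0.576, 0.512 and 0.571 in Veh. OCY-EV+ANTA lay above OCY-EV+ANTA-NC by a narrow gap, a log2 difference of 0.39 (exact permutation p = 0.1). Over the 9 ratio tests the Benjamini-Hochberg adjusted p was 0.45 or more.

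The enzymes around the pathway were read from lists of isoenzymes, substrate supply, phospholipid branches, breakdown and regulators. Of 5 tested isoenzymes of the same steps, out of 9 listed, edgeR called 0 in each comparison, as did DESeq2 and limma on log2(FPKM + 1). Over all genes tested edgeR called 14.7% in OCY-EV+ANTA against OCY-EV+ANTA-NC, 1.02% in OCY-EV+ANTA-NC against Veh and 6.52% in OCY-EV+ANTA against Veh. At an unadjusted p under 0.05 there were 2, 1 and 0 of the 5 isoenzymes in OCY-EV+ANTA against OCY-EV+ANTA-NC, OCY-EV+ANTA-NC against Veh and OCY-EV+ANTA against Veh. The share of all genes at that level was not counted. Gpat2, Agpat4, Lpin3 and Mogat1 did not pass the filter on low counts. The median log2 fold changes were 0.07, -0.04 and 0.02 in the same order. In OCY-EV+ANTA against OCY-EV+ANTA-NC, Agpat1 gave 0.13 (edgeR adjusted p = 0.157) and Tmem68 -0.24 (edgeR adjusted p = 0.0837). Without OCY-EV+ANTA 3 Tmem68 was called at -0.34 (edgeR adjusted p = 0.029), and with the GC content and length trend removed it gave -0.12 (edgeR adjusted p = 0.436).

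Among genes that supply glycerol phosphate and acyl-CoA, 2 of 10 tested rose in OCY-EV+ANTA against OCY-EV+ANTA-NC, none fell, and the list median was -0.01. Over all genes tested 14.7% were called in this comparison, 7.59% higher and 7.09% lower. Both encode acyl-CoA synthetases. Acsl1 averaged 46.5 ± 1.43 CPM in OCY-EV+ANTA and 40.5 ± 1.7 CPM in OCY-EV+ANTA-NC (SD, n = 3), and rose by 0.2 on the log2 scale (SE 0.06, edgeR adjusted p = 0.021). Its call ended without OCY-EV+ANTA-NC 2 (adjusted p = 0.102) or OCY-EV+ANTA 1 (0.0724), with library size alone (0.0505) and on the FPKM scale (0.139 at most). Acsl3 rose by 0.11 (SE 0.03, edgeR adjusted p = 0.0361), a call lost in 5 of the 9 fits that left out a library, with adjusted p up to 0.178. The call also ended with library size alone (0.07, adjusted p = 0.131), on both FPKM scales (0.07, adjusted p = 0.122 and 0.125) and with only the 2 groups compared (adjusted p = 0.0653). In the other comparisons edgeR, DESeq2 and limma on log2(FPKM + 1) called 0 of these 10 genes. Over all genes edgeR called 1.02% in OCY-EV+ANTA-NC against Veh and 6.52% in OCY-EV+ANTA against Veh. In that order 0 and 2 of the 10 had an unadjusted p under 0.05, a level whose share over all genes was not counted.

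Of 19 tested genes of the phospholipid branches, out of 23 listed, 2 fell and none rose in OCY-EV+ANTA against OCY-EV+ANTA-NC, with a list median of -0.01, against 7.09% lower and 7.59% higher over all genes. Chka, the choline kinase that opens phosphatidylcholine synthesis, averaged 322 ± 16.7 CPM in OCY-EV+ANTA and 363 ± 9.79 CPM in OCY-EV+ANTA-NC (SD, n = 3). Its log2 fold change was -0.17 (SE 0.04, edgeR adjusted p = 0.00326). Chpt1, which joins choline phosphate to diacylglycerol, was chosen after its value was seen. It gave -0.16 (edgeR adjusted p = 0.0464), and its call ended in 7 of the 9 fits without a library, with DESeq2, on the FPKM scale, and at -0.06 with the GC content and length trend removed. Against Veh, Pcyt1a, the rate-limiting enzyme of phosphatidylcholine synthesis, was the 1 gene of 19 that fell in OCY-EV+ANTA (3.46% of all genes were lower), by 0.18 on the log2 scale (SE 0.04, edgeR adjusted p = 0.0172). That call ended without Veh 2 (0.133), OCY-EV+ANTA 2 (0.0797) or OCY-EV+ANTA 3 (0.061). Chka gave -0.11 against Veh (edgeR adjusted p = 0.0819), and passed with no filter (0.0365) or the GC content and length trend removed (0.0452). Leaving out single libraries gave Chka an edgeR adjusted p of 0.0314 to 0.343. In this comparison 6 of the 19 had an unadjusted p under 0.05, a level whose share over all genes was not counted.

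Of 9 tested genes listed for triglyceride breakdown, 1 rose and 2 fell in OCY-EV+ANTA against OCY-EV+ANTA-NC, against 7.59% higher and 7.09% lower over all genes. The list median was -0.08. The list mixes hydrolases with other genes, among them G0s2 (-0.25) and Hilpda (-0.08), inhibitors of the lipase Pnpla2 that were not called. The list median therefore does not describe breakdown enzymes alone. Lipa, the lysosomal acid lipase, averaged 126 ± 2.94 CPM in OCY-EV+ANTA, 145 ± 3.23 CPM in OCY-EV+ANTA-NC and 150 ± 2.91 CPM in Veh (SD, n = 3). It fell by 0.2 against OCY-EV+ANTA-NC (SE 0.04, edgeR adjusted p = 0.00167) and by 0.25 against Veh (SE 0.04, edgeR adjusted p = 0.000421). Ddhd2, a phospholipase that also hydrolyses triglyceride, fell by 0.21 (edgeR adjusted p = 0.0112, and 0.0555 without OCY-EV+ANTA 2), and Abhd12, a monoacylglycerol and lysophospholipid hydrolase, rose by 0.18 (edgeR adjusted p = 0.00439). Both were chosen after their values were seen. Pnpla2, the adipose triglyceride lipase, averaged 59.4 ± 1.2 CPM in OCY-EV+ANTA, 64.9 ± 1.1 CPM in OCY-EV+ANTA-NC and 70.0 ± 1.44 CPM in Veh (SD, n = 3). It fell in OCY-EV+ANTA against Veh by 0.24 (SE 0.04, edgeR adjusted p = 0.00198) and gave -0.13 against OCY-EV+ANTA-NC (edgeR adjusted p = 0.0523). This last value passed with library size alone (edgeR adjusted p = 0.0172), with genes kept at a mean of at least 1 CPM (0.0453), with limma on both FPKM scales (0.0129 and 0.0131), and with the GC content and length trend removed (0.026).

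Of 13 tested regulators, 2 rose and none fell in OCY-EV+ANTA against OCY-EV+ANTA-NC, with a list median of 0.05, against 7.59% higher and 7.09% lower over all genes. Srebf2, the transcription factor of sterol synthesis, averaged 627 ± 9.28 CPM in OCY-EV+ANTA, 553 ± 15.4 CPM in OCY-EV+ANTA-NC and 599 ± 12.3 CPM in Veh (SD, n = 3). Its rise against OCY-EV+ANTA-NC was 0.18 (SE 0.03, edgeR adjusted p = 0.000347). Ctdnep1, a phosphatase that dephosphorylates lipin, rose by 0.18 (SE 0.05, edgeR adjusted p = 0.0249) and was chosen after its value was seen. Its call ended in 4 of the 9 fits without a library, with adjusted p up to 0.148, and with library size alone or on the FPKM scale. Mlx, the partner of the carbohydrate response factors, overlaps an opposite-strand gene over 19.3% of its exon bases. It fell in OCY-EV+ANTA against Veh by 0.28 (SE 0.07, edgeR adjusted p = 0.0197), a call that ended without Veh 1 (0.0849), Veh 2 (0.0696) or OCY-EV+ANTA 2 (0.0626).

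In OCY-EV+ANTA-NC against Veh, edgeR called 0 genes of each of the phospholipid, breakdown and regulator lists, against 1.02% of all genes tested. In these lists 1, 4 and 2 genes had an unadjusted p under 0.05, a level whose share over all genes was not counted. DESeq2 called 0, 0 and 1 and limma on log2(FPKM + 1) called 0, 0 and 0 in the same order. The regulator called by DESeq2 was Srebf2 at -0.11 (DESeq2 adjusted p = 0.0213, edgeR adjusted p = 0.0678). With no filter Srebf2 passed by edgeR too (adjusted p = 0.0205).

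Markers of other cell types were read beside these values because Mogat2 is known from the intestine. The 4 enterocyte markers summed to 24.3 to 28.4 CPM in OCY-EV+ANTA, 19.4 to 24.3 CPM in OCY-EV+ANTA-NC and 20.7 to 23.9 CPM in Veh. Most of it was Vil1 at 17.0 to 22.9 CPM. Alpi had 42 to 104 counts (2.14 to 5.61 CPM), while Fabp2 had at most 5 counts and Apoa4 at most 2. The 5 bile duct markers summed to 3905 to 4226 CPM in OCY-EV+ANTA, 3615 to 3790 CPM in OCY-EV+ANTA-NC and 3900 to 3970 CPM in Veh. Most of it was the keratins Krt19 at 2324 to 2866 CPM and Krt7 at 1103 to 1219 CPM, with Epcam at 0. This sum, set by keratins, was lowest in the same group as Mogat2 and Lpin1. The 4 adipocyte markers summed to 0.703 to 1.04 CPM in OCY-EV+ANTA, 0.38 to 0.481 CPM in OCY-EV+ANTA-NC and 0.337 to 0.461 CPM in Veh, with Plin1 at 0 and Cidec at 6 to 16 counts. The 10 hepatocyte markers summed to 170 to 213 CPM in OCY-EV+ANTA, 199 to 227 CPM in OCY-EV+ANTA-NC and 200 to 207 CPM in Veh. Their part in the results was not tested.

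The genes whose pattern over the 9 libraries was most like that of a called gene were found by Pearson's r of log2 CPM among the 9421 genes averaging at least 5 CPM. All points share the group structure and the libraries, so r is a description. Nearest to Gpam were Lats2 (r = 0.989), Ccn4 (0.981) and Oxr1 (0.974), and Ccn4 averaged 41.3 CPM in OCY-EV+ANTA, 62.0 CPM in OCY-EV+ANTA-NC and 59.6 CPM in Veh. Nearest to Lpin1 were Lims2 (0.986), Nfatc1 (0.983) and Fam210b (0.978), and Nfatc1 averaged 74.1, 57.5 and 62.7 CPM in OCY-EV+ANTA, OCY-EV+ANTA-NC and Veh. Nearest to Mogat2 were Pcbp1 (0.951), Trappc12 (0.951) and Ampd3 (0.945). Among the 8 genes themselves, Gpam and Lpin1 ran opposite to each other (r = -0.88), and Lpin2 and Mogat2 ran together (r = 0.81).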

How the data were processed

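For each of 9 libraries the authors deposited a table of counts per gene and a table of FPKM. Per the submitters' processing notes, HTSeq did the counting and the genome was mm10. For aligner, annotation and strand setting nothing is given in the sources used here. The deposited FPKM of all 16770 genes with a count followed from the count, the library total and a single gene length (tolerance 0.001 base), with no further normalization. Counts covered 17298814 to 21737643 reads per library.

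Counts were fitted with edgeR 4.0.16 (R 4.3.3): filterByExpr (count 10, total 15) kept 11562 genes, TMM scaling, 1 coefficient per group over all 9 libraries, quasi-likelihood test, Benjamini-Hochberg adjustment over all genes, threshold 0.05. CPM were computed from counts and TMM library sizes. Ratios used exact permutation tests. The edgeR fit, and not the ratio tests, was tried on simulated counts that had no differences by replicate number. Alternatives were DESeq2 1.42.0, limma 3.58.1 on log2(FPKM + 1) and log2(FPKM + 0.1), RLE factors, library size alone, no filter, a mean of at least 1 CPM, only the 2 groups compared, removal of a GC content and length trend, replicate number as a block, and leaving out each library. Of 21959 identifiers, 21851 matched GENCODE M21 (GRCm38, the assembly of mm10), the source of coordinates, symbols and untranslated regions. The miRNA sequence is from RefSeq.

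The rule for the 8 genes names symbols and uses no measured value, but the genes and the lists were chosen with earlier results of these data known. All 8 are described. From each list the text names the 2 genes with the smallest adjusted p in any comparison, and further called genes that were chosen after their values were seen. Some list genes outside this rule, among them Gpat4, G0s2 and Hilpda, are named although they were called in no comparison. For each of the called genes among the 8, the 3 genes with the highest r are named.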

Additional observations from a re-analysis of the deposited data

How the results depend on the processing

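In OCY-EV+ANTA against OCY-EV+ANTA-NC the 3 calls among the 8 genes (Gpam, Lpin1, Mogat2) held under every alternative run, and called genes over the whole table numbered 1005 (without OCY-EV+ANTA 2) to 1635 when 1 library was left out, against 1698. On log2(FPKM + 1) the split was 375 higher and 868 lower and on log2(FPKM + 0.1) 381 and 884. In OCY-EV+ANTA-NC against Veh, where 118 genes were called, DESeq2 called 184, no filter gave 335, log2(FPKM + 1) 44, log2(FPKM + 0.1) 41, only the 2 groups compared 180, and the GC content and length trend removed 61. Leaving out 1 library gave 43 to 184 (71, 44 and 43 without Veh 1, 2 and 3, 73 and 53 without OCY-EV+ANTA-NC 2 and 3, 184 without OCY-EV+ANTA 1). In OCY-EV+ANTA against Veh, where 754 were called, log2(FPKM + 0.1) gave 491 and leaving out 1 library 322 to 872 (322 and 422 without Veh 2 and 3, 361 and 459 without OCY-EV+ANTA 2 and 3). There 2 of the 8 genes were called, and 1 to 2 without single libraries; 1 remained on both FPKM scales, since Lpin1 was not called. The cause was not tested.

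With the replicate block, 522 genes were called in OCY-EV+ANTA-NC against Veh (465 with the GC content and length trend also removed). Of the 8 genes it called 1, Mogat2 at -0.29 (edgeR adjusted p = 0.036), and 0 with the trend also removed (Mogat2 -0.26, edgeR adjusted p = 0.0609). It called 1446 genes in OCY-EV+ANTA against Veh (1446 with the trend removed). The block also brought Tmem68 (edgeR adjusted p = 0.0447), Pnpla2 (0.0419) and Mlx (0.033) past the threshold in OCY-EV+ANTA against OCY-EV+ANTA-NC. It did so for Srebf2 (edgeR adjusted p = 0.00426) in OCY-EV+ANTA-NC against Veh. In OCY-EV+ANTA against Veh it did so for Chka (edgeR adjusted p = 0.0151) and Acsl3 (0.0482). Nothing in the labels says that numbers mark a shared batch. The deviations of same-numbered libraries correlated at 0.0887 to 0.245, 0.0375 to 0.194 and 0.0285 to 0.159 in OCY-EV+ANTA against OCY-EV+ANTA-NC, OCY-EV+ANTA-NC against Veh and OCY-EV+ANTA against Veh, not above 0.1 in every pair, so the number was not taken as a pairing. Of 6 libraries, 6, 3 and 5 correlated best with their own number, a hint from the data and not the design. Libraries numbered 1 correlated with each other at 0.245, 0.194 and 0.159 in the same order, and negatively with those numbered 2 and 3 throughout. Deviations were taken from the group mean and sum to 0 within a group. A positive value for library 1 therefore pulls its values with libraries 2 and 3 down, so the negative values are not separate evidence. Lpin1 and Dgat2 were lowest in library 1 of every group. What sets these libraries apart was not tested, and the main fit does not account for it.

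Of 480 alternative fold changes of the 8 genes, 453 kept direction and side of the threshold, 5 lost and 1 gained a call, and 21 changed sign, none of them of a called value. In OCY-EV+ANTA-NC against Veh, Gpam gave 0.01 with library size alone and on both FPKM scales. Acsl3 gave 0.000486 with library size alone and 0.000179 on both FPKM scales. With the trend removed, with or without the replicate block, Chpt1 gave -0.06 and Tmem68 -0.04. In OCY-EV+ANTA against Veh, Agpat3 gave -0.01 with library size alone and with the trend removed (with or without the replicate block), -0.0003 with no filter, and -0.00423 and -0.00481 on log2(FPKM + 1) and log2(FPKM + 0.1). Leaving out single libraries spread Agpat3 over -0.05 to 0.06, Agpat1 over -0.02 to 0.07, Lpin2 over -0.00329 to 0.03 and the Dgat1 to Dgat2 ratio over -0.11 to 0.08 in that comparison. In OCY-EV+ANTA-NC against Veh it spread Gpam over -0.04 to 0.02, Dgat1 over -0.04 to 0.11, Dgat2 over -0.09 to 0.04 and the same ratio over -0.02 to 0.17. In OCY-EV+ANTA against OCY-EV+ANTA-NC it spread Dgat2 over -0.11 to 0.03.

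The precision differed by gene, with an SE of 0.04 for Gpam and Lpin2 and of 0.08 for Mogat2, which had the fewest reads.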
